A study of Mus musculus with 9 samples.

Results

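The synaptic vesicle and neurotransmission genes examined here were 34 named genes of vesicle docking, fusion, recycling, transmitter loading and reception, read by gene symbol from 54532 genes of a mouse eye RNA-seq table. All 34 were found. For description they were divided into 26 genes that serve synapses of many neurons and 8 genes known for the ribbon synapse (Stx3, Cplx3, Cplx4, Ctbp2, Cacna1f, Cabp4, Grm6 and Trpm1). The comparison addressed how the transcripts of retinal synapses stood in each treatment group, and whether general neuronal and ribbon genes moved alike.

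The libraries came from choroidal-retinal flat mounts of C57BL/6 mice, with 3 libraries in each of 3 groups. The untreated group received no treatment. The CNV group is named CNV in its treatment label and wet-AMD in its titles, and no method or time of induction is given. CNV is the usual short form of choroidal neovascularization, the growth of vessels from the choroid that defines wet age-related macular degeneration (AMD). The remaining group is titled Betp-Gel@Ran and is written BetP-Gel@Ran below. Its treatment label gives an intravitreal injection of BetP-Gel 3 months before sampling and does not name ranibizumab, while the series' own description pairs the gel with that VEGF-binding antibody fragment. Whether CNV was induced in these mice is not stated. The labels give no sampling time for the other groups, so time and treatment cannot be told apart. Nor do they say that each library is a different mouse, so the p-values reflect only sample-to-sample spread, which may be technical.

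A conventional synapse releases transmitter when calcium enters through channels at the active zone. The vesicle SNARE synaptobrevin (Vamp2) then pairs with SNAP-25 and a syntaxin, with synaptotagmin as the calcium sensor and complexins as clamps and helpers. Photoreceptors and bipolar cells of the retina signal continuously, and hold their vesicles on a plate-like ribbon built from RIBEYE. They use syntaxin 3 and complexins 3 and 4 in place of the usual forms, and Cav1.4 calcium channels. ON bipolar cells read the photoreceptor's glutamate through mGluR6 and the channel TRPM1.

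Promoter stretches are printed here because they carry the letters read by factors known for photoreceptor genes and for neuronal genes, the 2 kinds that meet in this set. RefSeq promoter windows on GRCm38.p6, from 250 bases before to 50 after a start, were matched for 29 of the 34 genes, giving 41 windows of 300 bases. Vamp2, Cabp4, Cplx4, Snap25 and Rims2 were not matched. The core motif of the photoreceptor homeodomain factor CRX (TAATCC, or GGATTA on the other strand) was found in 8 of the 41 windows, or 19.5%, and in 7.062% of all 32851 windows. Those windows belong to Ctbp2, Dlg4, Gad1, Stx3, Sv2b, Syp and Trpm1, of which 3 are ribbon genes. The left portion of the RE1 element, which binds the neuronal gene repressor REST (TTCAGCACC, or GGTGCTGAA), was found in Syn1 and Unc13a, and in 0.371% of all windows. The cyclic AMP response element (TGACGTCA, its own reverse complement) was found in Syn1 and Sh3gl2, and in 1.79% of all windows. In Syn1 the RE1 letters begin 232 and the cyclic AMP element 159 bases before the start, so they do not overlap. A match describes letters only. The log2 fold changes in CNV of the 7 genes with a CRX core ran from -1.73 in Gad1 to -0.25 in Ctbp2.

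These stretches run 5′ to 3′ on the gene's strand, lie before the start, and carry the motif in capitals. In the Ctbp2 stretch (chr7:133015336-133015395, minus strand) the motif begins 121 bases before the start of the transcript that encodes RIBEYE. The others are from Trpm1 (chr7:64153774-64153833, plus strand), Sv2b (chr7:75309380-75309439, minus strand), Dlg4 (chr11:70017157-70017202, plus strand), Syn1 with its RE1 letters (chrX:20921115-20921168, minus strand) and Sh3gl2 with its cyclic AMP element (chr4:85205392-85205453, plus strand).
Ctbp2: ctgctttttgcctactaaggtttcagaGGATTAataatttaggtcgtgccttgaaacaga
Trpm1: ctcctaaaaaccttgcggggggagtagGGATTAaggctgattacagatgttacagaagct
Sv2b: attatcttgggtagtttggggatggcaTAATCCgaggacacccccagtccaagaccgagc
Dlg4: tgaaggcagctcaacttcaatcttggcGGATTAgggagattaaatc
Syn1: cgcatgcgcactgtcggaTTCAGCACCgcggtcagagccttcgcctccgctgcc
Sh3gl2: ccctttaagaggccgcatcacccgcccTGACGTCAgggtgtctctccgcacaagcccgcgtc
Ctbp2 has 2 kinds of product. The transcript that starts at position 133015248 has 988 codons and encodes RIBEYE, whereas those from the distal starts at 133123367 and 133123166 have 445 and 420 codons and encode the widely expressed co-repressor. The deposited value of Ctbp2 sums all of them, so it is not a measure of ribbons alone.

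Between 16990118 and 18753737 reads per library fell on genes, and between 13164 and 13481 genes were at 1 FPKM or above in each. FPKM are fragment counts scaled to gene length and sequencing depth. A gene was tested when 3 or more of the 9 libraries reached 1 FPKM, which left 14086 genes. Rod markers showed that the libraries held retina, with the rod transducin gene Gnat1 at mean levels of 1135 FPKM (untreated), 364 FPKM (CNV) and 547 FPKM (BetP-Gel@Ran). Markers of bipolar cells were low, and Vsx1, Gpr179, Nyx, Lhx4, Bhlhe23 and Tmem215 stayed under 1 FPKM in every library. Transcripts of cornea, lens and muscle were also present. Corneal surface markers took more reads than rod markers in every group. Their means were 4.78%, 2.73% and 3.78% of reads in untreated, CNV and BetP-Gel@Ran libraries, against 2.16%, 0.939% and 1.22% for rod markers.

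One library stood apart. In untreated replicate 3, lens markers took 2.47% of reads, against 0.105% and 0.114% in the other untreated libraries. It was the lowest untreated library for 23 of the 26 general genes and the highest for 6 of the 8 ribbon genes, while it was the lowest for 41.3% of all tested genes. Results are therefore also given without it.

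Of the 34 genes, 30 passed the filter. Unc13a, Bsn, Pclo and Grm6 were too low to be tested. Syn2, Slc32a1, Gad1 and Gad2 were below 1 FPKM in every CNV library and passed only through the other groups, so counts are given below with and without the filter. Fold changes are differences between group means of log2(FPKM + 1), given with their SE, a scale that makes the change of low genes look smaller. A gene is called when its limma p-value, adjusted over all tested genes, is under 0.05.

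**Figure D1:**
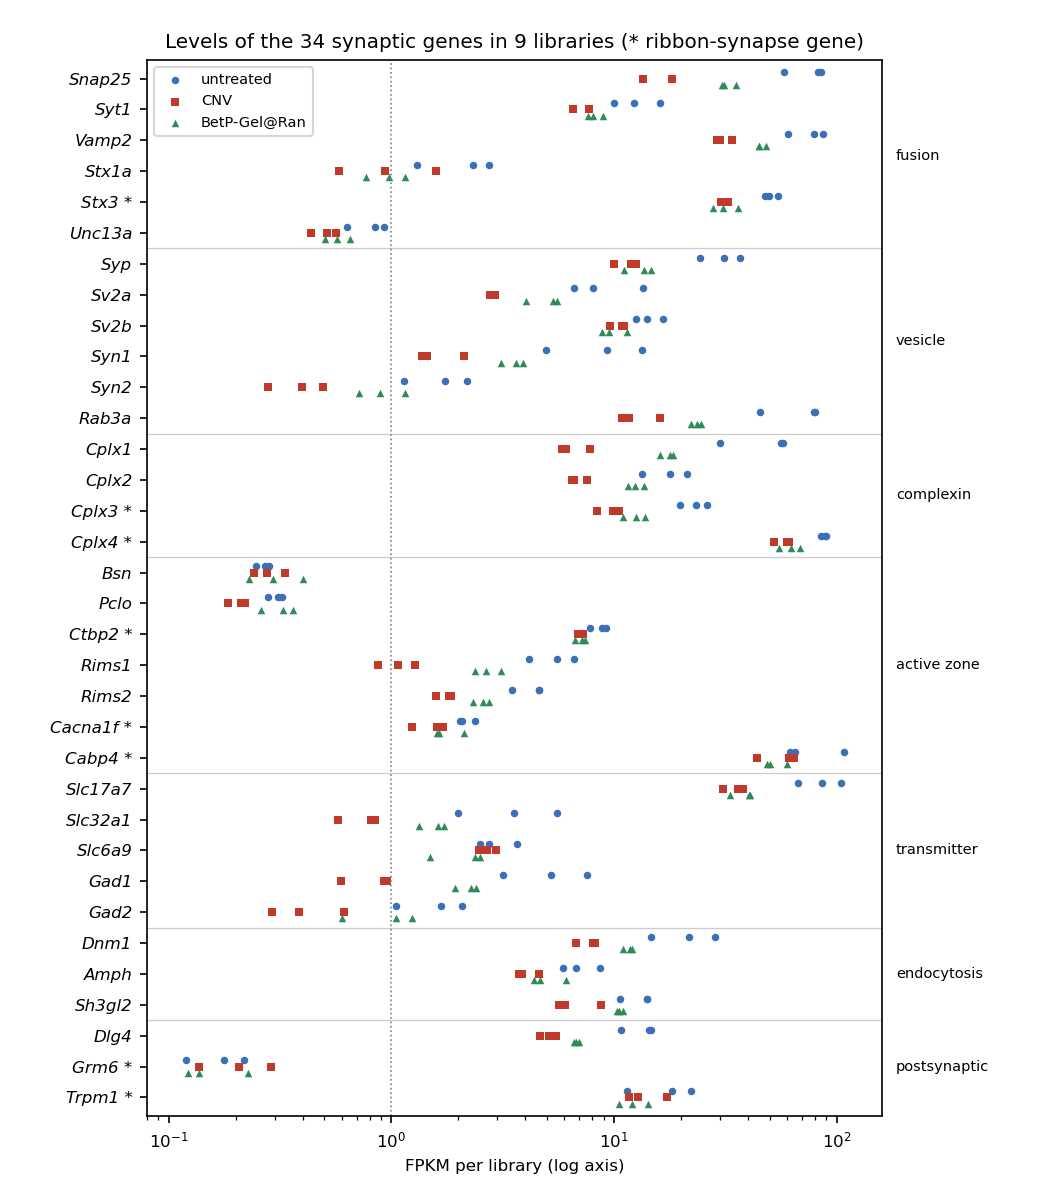
FPKM of the 34 genes in each of the 9 libraries on a log axis, grouped by role; asterisks mark the 8 ribbon-synapse genes and the dotted line marks 1 FPKM. Most of the genes not particular to ribbons show CNV libraries at the left and untreated libraries at the right, whereas the CNV and untreated libraries overlap for Stx1a, Bsn, Slc6a9, Grm6, Cabp4 and Trpm1.

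CNV libraries had lower levels of most of the synaptic genes than untreated libraries. With all 9 libraries, 27 of the 30 tested genes were lower and 0 were higher, whereas 22.1% of all tested genes were called lower and 22.5% higher. The median log2 fold change was -1.06 over the 30 genes and 0.01 over all tested genes. Without the filter on low values, 25 of the 34 genes were lower, with 10.8% of all genes called lower. Without untreated replicate 3, 25 of the 30 were lower, beside 21.0% of all. The highest CNV library lay below the lowest untreated library for 28 of the 34 genes, and for 26 of the 30 tested ones, where this held for 26.7% of all tested genes. In bulk tissue, fewer cells of a type and less RNA per cell cannot be told apart.

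BetP-Gel@Ran libraries differed from CNV in fewer of the synaptic genes. Against CNV, 9 of the 30 tested genes were higher and 0 lower, with 5.81% of all tested genes called higher and 8.27% lower. The 9 genes were Cplx1, Snap25, Rims1, Rab3a, Gad1, Cplx2, Sh3gl2, Vamp2 and Rims2. The median over the 30 genes was 0.36. Without the filter, 4 of 34 were higher, beside 0.895% of all genes, and without untreated replicate 3, 15 of 30 were higher, beside 6.42%. The count depended on single libraries, as did that over all genes. It was 4 without BetP-Gel@Ran replicate 1 or 3, beside 2.58% and 1.29% of all tested genes. It was 3 without BetP-Gel@Ran replicate 2 (1.04% of all), CNV replicate 1 (0.895%) or CNV replicate 2 (0.916%).

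Against untreated libraries, 23 of the 30 were lower in BetP-Gel@Ran and 0 higher, with 18.1% of all tested genes called lower and 16.1% higher. The median was -0.65. Without the filter, 17 of 34 were lower, beside 7.38% of all genes. Without untreated replicate 3, 25 were lower, beside 16.5% of all, and without BetP-Gel@Ran replicate 3, 15 were, beside 12.5%. Each group serves in 2 of these comparisons, so they share libraries and are not independent.

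The scaling of the libraries bears on these counts. When FPKM were divided by their sum in each library, 24, 6 and 16 of the 30 genes were called in these directions in the 3 comparisons, in the order given, beside 16.4%, 4.29% and 11.0% of all genes in the same direction. Among all calls, the higher ones then made up 60.0% in place of 50.4% in CNV against untreated, and 63.2% in place of 47.1% in BetP-Gel@Ran against untreated. Under that scaling 0 of the 30 genes were higher in CNV or BetP-Gel@Ran than in untreated libraries.

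**Figure D2:**
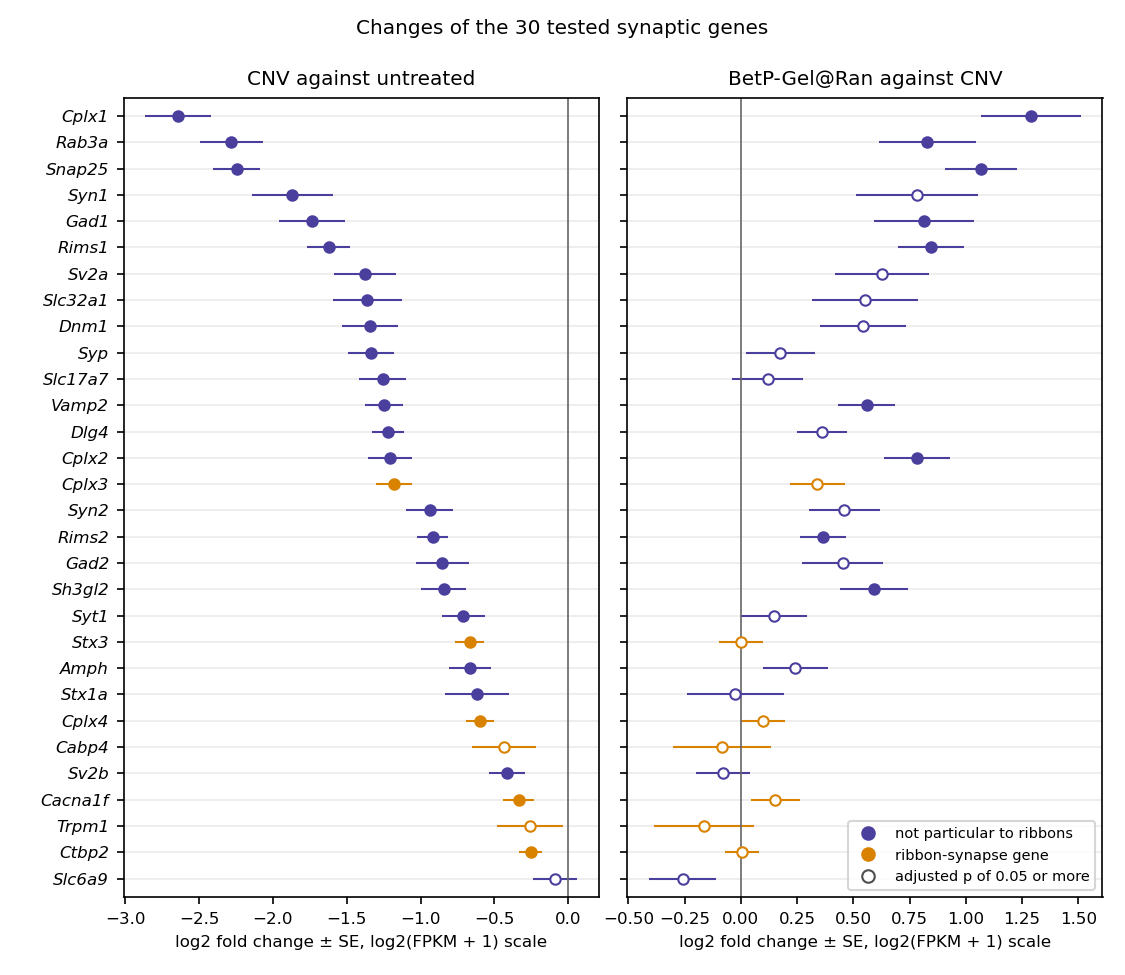
Differences of group mean log2(FPKM + 1), with SE bars, for the 30 tested genes, CNV against untreated at the left and BetP-Gel@Ran against CNV at the right, each with its own axis; filled points have a limma adjusted p under 0.05. In CNV all 30 points lie below 0, from Cplx1 at -2.64 to Slc6a9 at -0.09, and none of the ribbon-synapse genes is filled at the right.

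Among the fusion proteins, Snap25 (chr2:136713453-136782428, mm10) encodes the plasma membrane SNARE. It was at 85.6, 82.9 and 58.3 FPKM in the untreated libraries, 13.5, 13.5 and 18.2 in CNV and 30.7, 35.3 and 31.4 in BetP-Gel@Ran. The 3 groups did not overlap, and each BetP-Gel@Ran library lay above each CNV library and below each untreated one. The mean in CNV was 5.01-fold lower than in untreated libraries, and the log2 fold change was -2.24 ± 0.16 (SE, limma adjusted p = 1.66e-05). BetP-Gel@Ran stood 1.07 ± 0.16 above CNV (adjusted p = 0.00733) and -1.18 ± 0.16 against untreated (adjusted p = 0.000916). Without untreated replicate 3, the fall in CNV was -2.42.

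Vamp2 (chr11:69088490-69092384), the vesicle SNARE, was at 86.7, 79.5 and 60.5 FPKM in untreated, 29.0, 29.9 and 33.9 in CNV and 45.0, 48.0 and 45.1 in BetP-Gel@Ran libraries. Its groups were also separate and in the same order. It fell by 1.25 ± 0.13 on the log2 scale in CNV (limma adjusted p = 8.5e-05) and stood 0.56 ± 0.13 above CNV in BetP-Gel@Ran (adjusted p = 0.0238, a call lost under 6 of 18 alternatives).

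Stx3 (chr19:11775118-11819403) encodes syntaxin 3, the SNARE of ribbon terminals, and behaved otherwise. Its levels were 49.8, 47.8 and 54.4 FPKM in untreated, 30.2, 32.0 and 32.4 in CNV and 27.9, 36.2 and 30.9 in BetP-Gel@Ran libraries. Both treated groups lay below the untreated one, and they overlapped each other. The log2 fold change was -0.67 ± 0.10 in CNV (limma adjusted p = 0.000639), and BetP-Gel@Ran differed from CNV by 0.00 ± 0.10 (adjusted p = 0.996).

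Snap25 made up 63.2%, 63.4% and 51.7% of the summed FPKM of Snap25 and Stx3 in the untreated libraries. That share was 30.9%, 29.7% and 36.0% in CNV and 52.3%, 49.4% and 50.3% in BetP-Gel@Ran libraries. The CNV libraries were the lowest, and untreated replicate 3 lay within the BetP-Gel@Ran range.

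Syt1, the calcium sensor of fast release, was at 10.0 to 16.1 FPKM in untreated, 6.54 to 7.72 in CNV and 7.66 to 8.98 in BetP-Gel@Ran libraries. It was lower in both treated groups than in untreated (log2 fold changes -0.71 ± 0.15 and -0.56 ± 0.15, limma adjusted p = 0.00373 and 0.0162). The 0.15 ± 0.15 between them was not called (adjusted p = 0.515). Stx1a, the syntaxin of conventional terminals, was low, at 1.30 to 2.76 FPKM in untreated, 0.583 to 1.59 in CNV and 0.773 to 1.16 in BetP-Gel@Ran libraries, and the CNV and untreated ranges overlapped. Its fall in CNV of 0.62 ± 0.21 on the log2 scale was called (adjusted p = 0.0413), but the call was lost under 10 of 17 alternatives. Unc13a, the vesicle priming factor Munc13-1, was at 0.633 to 0.932 FPKM in untreated and 0.438 to 0.564 in CNV libraries, below the filter.

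Among the vesicle proteins, all 6 were called lower in CNV and in BetP-Gel@Ran than in untreated libraries, beside 22.1% and 18.1% of all tested genes. Without the filter 6 and 4 of them were, beside 10.8% and 7.38% of all genes. For Syn2, BetP-Gel@Ran and untreated libraries overlapped. Against untreated, the BetP-Gel@Ran call was lost under 8 of 17 alternatives for Syn2, 4 of 18 for Sv2a and 1 of 18 for Sv2b. Rab3a (chr8:70754679-70758677), the vesicle GTPase, was at 78.9, 79.9 and 45.1 FPKM in untreated, 10.9, 11.8 and 16.2 in CNV and 22.1, 23.6 and 24.6 in BetP-Gel@Ran libraries. Every BetP-Gel@Ran library lay between the CNV and the untreated libraries. Its log2 fold change in CNV was -2.28 ± 0.22 (limma adjusted p = 6.41e-05), and BetP-Gel@Ran stood 0.83 ± 0.22 above CNV (adjusted p = 0.0362, a call lost under 8 of 18 alternatives).

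Syn1 (chrX:20860511-20921004), synapsin 1, which tethers the reserve pool of vesicles, was at 9.36, 13.4 and 4.96 FPKM in untreated, 1.45, 2.12 and 1.38 in CNV and 3.10, 3.91 and 3.62 in BetP-Gel@Ran libraries. The groups did not overlap, though untreated replicate 3 was close to the BetP-Gel@Ran libraries. The mean in CNV was 5.58-fold lower than in untreated libraries (log2 fold change -1.87 ± 0.27, limma adjusted p = 0.000703). The 0.78 ± 0.27 between BetP-Gel@Ran and CNV was not called with all libraries (adjusted p = 0.0851) and was called without untreated replicate 3 (adjusted p = 0.0186). Syn2 fell by 0.94 ± 0.16 in CNV on the log2 scale (adjusted p = 0.00123), with 0.280 to 0.494 FPKM there against 1.15 to 2.19 in untreated libraries.

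The paralogs Sv2a and Sv2b, vesicle glycoproteins, had unlike values. Sv2a (chr3:96181151-96195521) was at 8.06, 13.6 and 6.59 FPKM in untreated, 2.84, 2.79 and 2.91 in CNV and 5.34, 5.57 and 4.04 in BetP-Gel@Ran libraries, with no overlap between groups. Sv2b (chr7:75114894-75309262), whose protein is also known from photoreceptor terminals, was at 12.5, 14.0 and 16.6 FPKM in untreated, 9.56, 11.1 and 10.8 in CNV and 9.49, 11.5 and 8.82 in BetP-Gel@Ran libraries. The treated groups overlapped each other for Sv2b and both lay below the untreated libraries. The log2 fold change in CNV was -1.38 ± 0.21 for Sv2a and -0.41 ± 0.12 for Sv2b (limma adjusted p = 0.000762 and 0.0194). Sv2b lost that call without untreated replicate 3 (adjusted p = 0.0633), in which it was highest. Sv2a made up 39.2%, 49.2% and 28.4% of the FPKM of the pair in untreated, 22.9%, 20.1% and 21.2% in CNV and 36.0%, 32.7% and 31.4% in BetP-Gel@Ran libraries.

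Syp (chrX:7638471-7653256), synaptophysin, an abundant vesicle membrane protein, was at 31.4, 36.9 and 24.4 FPKM in untreated, 12.6, 10.0 and 11.99 in CNV and 13.7, 14.7 and 11.1 in BetP-Gel@Ran libraries. The treated groups overlapped and lay below every untreated library. The log2 fold changes against untreated were -1.33 ± 0.15 in CNV and -1.16 ± 0.15 in BetP-Gel@Ran (limma adjusted p = 0.000182 and 0.00084). Syp shares 16.79% of its exon bases with Gm14703 on the opposite strand, and the library kit does not mark strand.

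The complexins gave the widest spread within a family. Cplx1 (chr5:108518554-108550024), of conventional synapses, was at 56.3, 57.3 and 30.03 FPKM in untreated, 6.09, 5.83 and 7.79 in CNV and 16.1, 17.8 and 18.4 in BetP-Gel@Ran libraries. The groups did not overlap, and among the 30 tested genes its fall in CNV was the largest on the log2 scale. The CNV mean was 7.29-fold lower than the untreated mean (log2 fold change -2.64 ± 0.22, limma adjusted p = 3.49e-05). BetP-Gel@Ran stood 1.29 ± 0.22 above CNV (adjusted p = 0.0108) and -1.35 ± 0.22 against untreated (adjusted p = 0.00222). Without untreated replicate 3 the fall in CNV was -2.94.

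Cplx2 (chr13:54371349-54383917), also of conventional synapses, was at 17.8, 21.4 and 13.3 FPKM in untreated, 6.62, 6.51 and 7.56 in CNV and 11.6, 12.5 and 13.7 in BetP-Gel@Ran libraries. One BetP-Gel@Ran library reached the level of untreated replicate 3, and all 3 lay above CNV. Cplx2 fell by 1.21 ± 0.15 on the log2 scale in CNV (limma adjusted p = 0.000227) and BetP-Gel@Ran stood 0.78 ± 0.15 above CNV (adjusted p = 0.0136, a call lost under 3 of 18 alternatives). Against untreated, -0.42 ± 0.15 was not called (adjusted p = 0.0502), but was without untreated replicate 3 (-0.60, adjusted p = 0.00575).

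Cplx3 (chr9:57599992-57606281), a ribbon complexin, was at 23.3, 26.1 and 19.9 FPKM in untreated, 9.95, 8.36 and 10.5 in CNV and 11.0, 12.5 and 13.7 in BetP-Gel@Ran libraries. It was the only ribbon gene whose 3 groups were separate and in the order CNV, BetP-Gel@Ran, untreated. Its fall in CNV was -1.18 ± 0.12 (limma adjusted p = 9.2e-05) and the 0.34 ± 0.12 above CNV was not called (adjusted p = 0.0889). Cplx4, the other ribbon complexin, was at 89.2, 85.2 and 89.3 FPKM in untreated, 60.1, 52.3 and 61.2 in CNV and 62.5, 68.8 and 55.1 in BetP-Gel@Ran libraries. The untreated libraries of Cplx4 lay close together, replicate 3 included. Its log2 fold changes against untreated were -0.60 ± 0.10 in CNV and -0.50 ± 0.10 in BetP-Gel@Ran (adjusted p = 0.00106 and 0.0046).

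Cplx1 and Cplx2 together made up 39.7%, 41.4% and 28.4% of complexin FPKM in untreated libraries. The share was 15.4%, 16.9% and 17.6% in CNV and 27.4%, 27.1% and 31.8% in BetP-Gel@Ran libraries. CNV was the lowest group without overlap, and untreated replicate 3 lay within the BetP-Gel@Ran range.

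**Figure D3:**
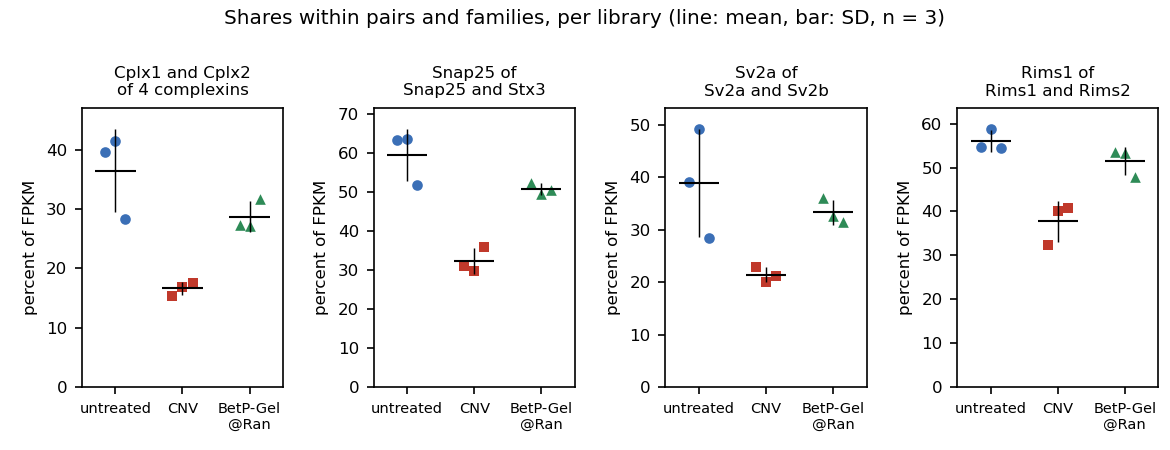
Share of FPKM taken by the first-named gene or genes of each pair or family in the 9 libraries, with the mean as a line and the SD as a bar (n = 3). In all 4 panels the CNV libraries are lowest without overlap, and untreated replicate 3 is the lowest untreated library.

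At the active zone, Rims1 and Rims2 encode scaffolds that hold calcium channels near docked vesicles. Rims1 (chr1:22286251-22805994) was at 5.56, 6.59 and 4.16 FPKM in untreated, 0.871, 1.07 and 1.27 in CNV and 2.67, 3.12 and 2.37 in BetP-Gel@Ran libraries. Rims2 (chr15:39198261-39684372) was at 4.60, 4.60 and 3.47 FPKM in untreated, 1.82, 1.59 and 1.85 in CNV and 2.33, 2.74 and 2.58 in BetP-Gel@Ran libraries. Both had separate groups in the order CNV, BetP-Gel@Ran, untreated. The CNV mean of Rims1 was 5.07-fold lower and that of Rims2 2.41-fold lower than the untreated mean (log2 fold changes -1.62 ± 0.15 and -0.92 ± 0.10, limma adjusted p = 4.41e-05 and 0.000156). BetP-Gel@Ran stood 0.85 ± 0.15 above CNV for Rims1 and 0.37 ± 0.10 for Rims2 (adjusted p = 0.0107 and 0.0467). The call of Rims2 was lost under 10 of 17 alternatives, that of Rims1 under 0 of 17. Rims1 made up 54.5% to 58.9% of the pair in untreated, 32.3% to 40.8% in CNV and 47.9% to 53.5% in BetP-Gel@Ran libraries, and these ranges did not overlap.

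The ribbon's own active zone genes, Ctbp2, Cacna1f and Cabp4, had smaller log2 fold changes in CNV than Rims1 and Rims2. Ctbp2 (chr7:132987563-133124354) was at 9.20, 8.84 and 7.79 FPKM in untreated, 6.96, 7.28 and 6.89 in CNV and 6.66, 7.39 and 7.17 in BetP-Gel@Ran libraries. Both treated groups lay just below the untreated one, by -0.25 ± 0.08 each on the log2 scale (limma adjusted p = 0.0231 in CNV and 0.0322 in BetP-Gel@Ran). The call in CNV was lost under 5 of 18 alternatives and that in BetP-Gel@Ran under 8 of 18.

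Cacna1f (chrX:7607083-7635196), the pore of Cav1.4, was at 2.04, 2.08 and 2.38 FPKM in untreated, 1.70, 1.24 and 1.60 in CNV and 1.65, 2.12 and 1.61 in BetP-Gel@Ran libraries. CNV lay below untreated without overlap (log2 fold change -0.34 ± 0.11, limma adjusted p = 0.0293), a call lost under 7 of 17 alternatives, among them leaving out untreated replicate 3 (adjusted p = 0.0876). At this level the added 1 FPKM makes the change look smaller. The CNV mean was 1.43-fold lower than the untreated mean, and limma voom on recovered reads gave -0.52. Cacna1f and Syp are neighbours on the X chromosome, 3274 bases apart, and their falls in CNV were 0.34 and 1.33 on the log2 scale.

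Cabp4 (chr19:4135425-4139609), which tunes Cav1.4, was at 61.9, 65.0 and 108 FPKM in untreated, 61.4, 43.8 and 64.5 in CNV and 50.0, 60.0 and 48.5 in BetP-Gel@Ran libraries. Untreated replicate 3 stood far above the rest, and the CNV and untreated ranges overlapped. Neither treated group was called against untreated (CNV -0.44 ± 0.22, limma adjusted p = 0.134, and BetP-Gel@Ran -0.52 ± 0.22, adjusted p = 0.0953). Without that library the value in CNV was -0.18 (adjusted p = 0.419).

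Bsn and Pclo, bassoon and piccolo, the giant scaffolds of active zones of either kind, were under the filter. Bsn was at 0.229 to 0.401 FPKM over the 9 libraries and its 3 groups overlapped. Pclo was at 0.281 to 0.323 FPKM in untreated, 0.185 to 0.220 in CNV and 0.259 to 0.363 in BetP-Gel@Ran libraries, so that CNV lay below both other groups. In the fit without a filter neither was called in any comparison.

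Among genes of transmitter loading and synthesis, Slc17a7 (chr7:45163949-45176142) encodes VGLUT1, the vesicular glutamate transporter of photoreceptors and bipolar cells. It was at 105, 86.0 and 67.4 FPKM in untreated, 37.9, 30.9 and 36.2 in CNV and 40.9, 40.4 and 33.1 in BetP-Gel@Ran libraries. Both treated groups lay below all untreated libraries and overlapped each other. It fell by 1.26 ± 0.16 on the log2 scale in CNV (limma adjusted p = 0.000272) and the 0.12 ± 0.16 between BetP-Gel@Ran and CNV was not called (adjusted p = 0.635).

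The inhibitory genes were lower in level. Gad1 (chr2:70553072-70602014), which makes GABA in amacrine and horizontal cells, was at 5.22, 7.56 and 3.16 FPKM in untreated, 0.958, 0.597 and 0.927 in CNV and 1.93, 2.41 and 2.27 in BetP-Gel@Ran libraries. Its groups were separate, with BetP-Gel@Ran between the others. The CNV mean was 6.43-fold lower than the untreated mean (log2 fold change -1.73 ± 0.22, limma adjusted p = 0.000304). BetP-Gel@Ran stood 0.81 ± 0.22 above CNV (adjusted p = 0.0415), a call lost under 10 of 17 alternatives.

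Slc32a1 (chr2:158610767-158615748), the vesicular transporter of GABA and glycine, was at 3.56, 5.56 and 1.99 FPKM in untreated, 0.848, 0.815 and 0.575 in CNV and 1.33, 1.62 and 1.73 in BetP-Gel@Ran libraries. These groups too were separate and in the same order. Its fall of 1.36 ± 0.23 in CNV was called (limma adjusted p = 0.00151) and the 0.55 ± 0.23 above CNV was not (adjusted p = 0.142). Slc32a1 shares 24.92% of its exon bases with Gm14205 on the opposite strand. Gad2 was at 1.05 to 2.09 FPKM in untreated, 0.291 to 0.611 in CNV and 0.602 to 1.24 in BetP-Gel@Ran libraries, and was called in CNV against untreated only of the 3 comparisons (-0.85 ± 0.18, adjusted p = 0.00437).

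Slc6a9, the glycine transporter GlyT1, gave no call. It was at 2.74, 3.67 and 2.49 FPKM in untreated, 2.69, 2.96 and 2.47 in CNV and 2.51, 1.498 and 2.38 in BetP-Gel@Ran libraries, and all 3 groups overlapped. The log2 fold change in CNV was -0.09 ± 0.15 (limma adjusted p = 0.662). A share of 27.8% of its exon bases lies opposite Ccdc24, and without strand the reads of the 2 genes cannot be told apart there.

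The 3 endocytosis genes, which retrieve vesicle membrane after release, were all lower in CNV. Dnm1 (chr2:32308471-32353338), the neuronal dynamin, was at 21.8, 28.5 and 14.7 FPKM in untreated, 8.19, 6.75 and 8.07 in CNV and 10.9, 12.1 and 11.8 in BetP-Gel@Ran libraries. Its groups did not overlap. The log2 fold changes in CNV were -1.34 ± 0.19 for Dnm1, -0.84 ± 0.15 for Sh3gl2, or endophilin A1, and -0.67 ± 0.14 for Amph, or amphiphysin (limma adjusted p = 0.00054, 0.00186 and 0.00496). Amph was at 5.91 to 8.71 FPKM in untreated, 3.77 to 4.62 in CNV and 4.40 to 6.08 in BetP-Gel@Ran libraries, where the treated ranges overlapped. Sh3gl2 (chr4:85205126-85639195) was at 14.0, 14.1 and 10.6 FPKM in untreated, 5.64, 6.04 and 8.77 in CNV and 10.6, 11.0 and 10.3 in BetP-Gel@Ran libraries. All its BetP-Gel@Ran libraries lay above CNV and at the level of untreated replicate 3. Sh3gl2 stood 0.59 ± 0.15 above CNV (adjusted p = 0.034, a call lost under 8 of 18 alternatives), and its difference from untreated of -0.25 ± 0.15 was not called (adjusted p = 0.227).

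On the receiving side, Dlg4 (chr11:70016942-70047522), PSD-95, a scaffold that the retina also holds in photoreceptor terminals, was at 14.6, 14.4 and 10.8 FPKM in untreated, 5.48, 4.66 and 5.09 in CNV and 6.77, 6.999 and 6.61 in BetP-Gel@Ran libraries. Its groups were separate. It fell by 1.22 ± 0.11 on the log2 scale in CNV (limma adjusted p = 4.71e-05), and the 0.36 ± 0.11 above CNV missed the threshold (adjusted p = 0.0587). Trpm1 (chr7:64153835-64269775) was at 11.4, 18.2 and 22.1 FPKM in untreated, 11.7, 17.2 and 12.9 in CNV and 12.04, 14.2 and 10.6 in BetP-Gel@Ran libraries. Those ranges overlapped and no comparison was called (CNV against untreated -0.26 ± 0.22, adjusted p = 0.378). Trpm1 is also a gene of pigment cells, which flat mounts with choroid contain. Grm6 was at 0.120 to 0.289 FPKM over the 9 libraries, or 11 to 31 reads, under the filter and overlapping in all groups.

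The general and the ribbon genes differed in their counts. Of 23 tested general genes, 22 were lower in CNV than in untreated, 9 were higher in BetP-Gel@Ran than in CNV and 19 were lower in BetP-Gel@Ran than in untreated, with medians of -1.25, 0.54 and -0.75. Of 7 tested ribbon genes, 5 were lower, 0 were higher and 4 were lower, with medians of -0.44, 0.00 and -0.50. Over all tested genes these calls were made for 22.1%, 5.81% and 18.1%. Without the filter on low values the counts were 21, 4 and 14 of the 26 general genes and 4, 0 and 3 of the 8 ribbon genes, beside 10.8%, 0.895% and 7.38% of all genes. The lists are small, and no test was made of the difference between them. Nor is the division clean. Slc17a7, Sv2b and Dlg4, counted as general, are also genes of photoreceptors, and Ctbp2 and Trpm1, counted as ribbon genes, also serve outside ribbon synapses. These are examples only. The other general genes, Snap25, Vamp2, Syp and Rab3a among them, were not chosen for absence from ribbon terminals, nor the ribbon genes for absence from other cells. The order CNV, BetP-Gel@Ran, untreated without overlap was met by 12 of the 26 general genes and by 1 of the 8 ribbon genes, and by 5.03% of all tested genes. BetP-Gel@Ran lay above CNV without overlap for 17 of the 34 genes (18.3% of all tested genes), 16 general and 1 ribbon gene. It lay below untreated for 22 of the 34 (25.4% of all tested genes).

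Summed over the 26 general genes, FPKM were 590.2, 603 and 399 in the untreated libraries, 171, 164 and 190.1 in CNV and 253, 274 and 250.5 in BetP-Gel@Ran. Summed over the 8 ribbon genes they were 247, 253 and 304 in untreated, 182, 162 and 190.2 in CNV and 172, 201 and 168 in BetP-Gel@Ran libraries. The general sum separated all 3 groups, whereas the ribbon sum separated untreated libraries from the other groups alone. The ratio of the general to the ribbon sum was 2.39, 2.38 and 1.31 in untreated, 0.935, 1.01 and 0.999 in CNV and 1.47, 1.36 and 1.49 in BetP-Gel@Ran libraries. CNV lay lowest without overlap, and untreated replicate 3 lay below the BetP-Gel@Ran libraries. The mean log2 ratio in CNV minus that in untreated libraries was -0.99 with all libraries and -1.28 without untreated replicate 3. A few abundant genes weigh most in these sums, among them Snap25, Slc17a7, Vamp2 and Rab3a in the general list and Cplx4, Cabp4 and Stx3 in the ribbon list. Slc17a7 is a gene of photoreceptors and bipolar cells, and Snap25, Vamp2 and Rab3a were not chosen for absence from ribbon terminals. The ratio therefore does not set conventional against ribbon synapses.

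**Figure D4:**
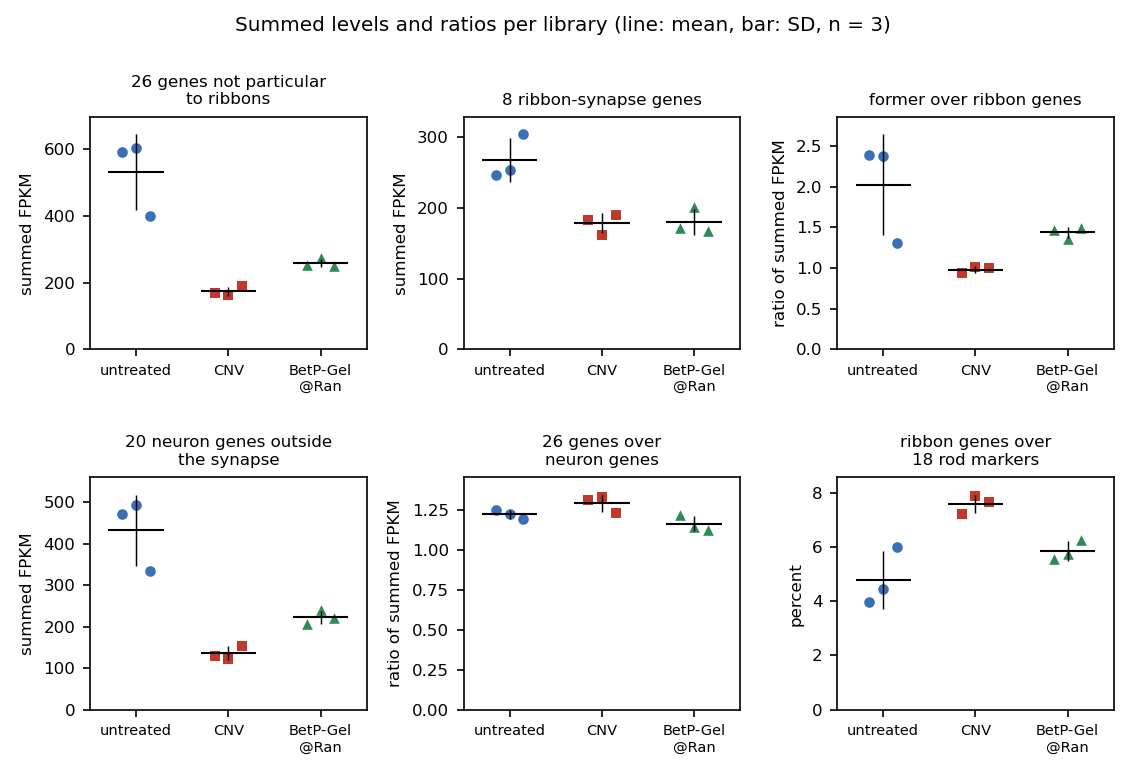
Summed FPKM and ratios in each of the 9 libraries, with the mean as a line and the SD as a bar (n = 3). The ratio of general to ribbon genes is lowest in CNV libraries and 1.31 in untreated replicate 3, while the ratio of general synaptic to other neuronal genes stays between 1.13 and 1.33.

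Other neuronal transcripts moved with the general synaptic genes. Another list held 20 neuronal genes, none of them among the 34. It summed to 335 to 493 FPKM in untreated, 123 to 155 in CNV and 208 to 239.6 in BetP-Gel@Ran libraries. Of its 19 tested genes, 17 were lower in CNV than in untreated and 9 were higher in BetP-Gel@Ran than in CNV. Over all tested genes these calls were made for 22.1% and 5.81%. Without the filter they were made for 18 and 5 of the 20, beside 10.8% and 0.895% of all genes. Elavl2, Elavl3 and Rbfox3 were under 1 FPKM in every CNV library and passed the filter only through other groups. The ratio of the general synaptic sum to this list was 1.19 to 1.25 in untreated, 1.23 to 1.33 in CNV and 1.13 to 1.22 in BetP-Gel@Ran libraries, so untreated and CNV overlapped, while BetP-Gel@Ran lay below CNV without overlap and overlapped untreated. Ganglion cell markers, 15 of 15 tested, gave 13 lower genes in CNV and 8 higher ones in BetP-Gel@Ran against CNV. Without the filter these were 13 and 4 of 15, and the shares of all genes are those given above. Pou4f1, Pou4f2, Pou4f3, Slc17a6 and Isl2 were under 1 FPKM in every CNV library and passed only through other groups. Gap43 and Stmn2 are in both lists, so the lists are not independent. Ganglion markers summed to 284 to 450.1 FPKM in untreated, 100.7 to 129 in CNV and 194 to 208 in BetP-Gel@Ran libraries.

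Rods carry most ribbon synapses of the mouse retina, and their markers also moved. Of 18 rod markers, 15 were lower in CNV with a median of -1.26, beside 22.1% of all tested genes. In BetP-Gel@Ran against CNV, 1 of the 18 was higher, beside 5.81% of all tested genes. Without the filter, 15 and 0 of 18 were, beside 10.8% and 0.895% of all genes. The summed FPKM of the rod markers separated all 3 groups, at 5075 to 6246 in untreated, 2061 to 2527 in CNV and 2679 to 3503 in BetP-Gel@Ran libraries. As a percentage of the rod marker sum, the ribbon genes were at 3.95, 4.43 and 6.00 in untreated, 7.22, 7.88 and 7.66 in CNV and 5.55, 5.75 and 6.26 in BetP-Gel@Ran libraries. CNV was highest without overlap, and no test of the 2 lists was made. The general genes were at 7.87% to 10.5% of the rod sum in untreated, 6.75% to 7.96% in CNV and 7.83% to 9.35% in BetP-Gel@Ran libraries, and these ranges overlapped in all 3 comparisons. Of 7 tested bipolar markers, 1 was lower in CNV (median 0.15), beside 22.1% of all tested genes. Amacrine and horizontal cell markers summed to 188 to 309.6 FPKM in untreated, 52.4 to 73.3 in CNV and 114 to 121 in BetP-Gel@Ran libraries. Calb2 alone held a mean of 214 of the 264 FPKM in untreated libraries. Of 8 tested genes, 5 were lower in CNV and 5 higher in BetP-Gel@Ran than in CNV, beside 22.1% and 5.81% of all tested genes. Without the filter, 7 and 2 of 14 were, beside 10.8% and 0.895% of all genes.

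Markers of other tissues moved between the groups as well. Skeletal muscle markers summed to 5732 to 6387 FPKM in untreated, 1011 to 1736 in CNV and 1483 to 1731 in BetP-Gel@Ran libraries, with 12 of 12 tested genes lower in CNV and Tnnc2 at 0 throughout. Myeloid markers summed to 333 to 378 FPKM in untreated, 1660 to 2737 in CNV and 726 to 1031 in BetP-Gel@Ran libraries, with 12 of 12 higher in CNV. Corneal surface markers, led by the keratin Krt5, took 4.55% to 5.10% of reads in untreated, 2.54% to 2.88% in CNV and 3.46% to 4.17% in BetP-Gel@Ran libraries, in the same order as the general synaptic sum and without overlap. Of 11 tested, 7 were lower in CNV, and 5 were higher in BetP-Gel@Ran than in CNV. Over all tested genes, 22.1% were called lower and 22.5% higher in CNV, and 5.81% higher in BetP-Gel@Ran than in CNV. Without the filter, 3 of 12 corneal markers were higher in BetP-Gel@Ran than in CNV, beside 0.895% of all genes. Lens markers took 0.00342% to 0.0180% of reads in CNV and 0.186% to 0.655% in BetP-Gel@Ran libraries. The part of these tissues in the synaptic values was not tested.

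A wider list of 132 other synaptic genes was read in the same way. Of its 81 tested genes, 53 were lower and 7 higher in CNV than in untreated, 17 were higher and 3 lower in BetP-Gel@Ran than in CNV, and 25 were lower and 5 higher in BetP-Gel@Ran than in untreated. The shares of all tested genes, in the same order, were 22.1% and 22.5%, 5.81% and 8.27%, and 18.1% and 16.1%. The medians of the list were -0.47, 0.21 and -0.20. Of the 81 genes, 11 were under 1 FPKM in every CNV library and passed the filter through the other groups. Without the filter, 61 of the 132 genes were lower and 7 higher in CNV than in untreated, and 25 were lower and 6 higher in BetP-Gel@Ran than in untreated. Of all 29374 genes in that fit, 3165 were lower and 3280 higher in CNV, and 2168 lower and 1881 higher in BetP-Gel@Ran. In BetP-Gel@Ran against CNV, 7 of the 132 were then higher and 0 lower, beside 0.895% and 2.01% of all genes. Among the largest falls in CNV were those of Atp6v1g2, a subunit of the vesicle proton pump (-2.22 ± 0.17), Rph3a, a Rab3 effector (-1.99 ± 0.20), and Vamp1 (-1.71 ± 0.14, limma adjusted p = 2.06e-05, 8.53e-05 and 2.61e-05).

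The SNAREs that rose in CNV are used widely outside neurons. Snap23, the ubiquitous relative of Snap25, rose by 0.64 ± 0.11, and Stx2 by 0.57 ± 0.08 (limma adjusted p = 0.00116 and 0.00044). Gnb3, the transducin subunit of cones and ON bipolar cells, rose by 0.98 ± 0.17 (adjusted p = 0.0014) and the actin-binding Synpo by 0.59 ± 0.10 (adjusted p = 0.00174). Gnb3 does not stand for cone markers. Of 10 tested, it was the only 1 called higher in CNV, 2 were lower and the median was -0.68. Over all tested genes, 22.5% were called higher and 22.1% lower. In BetP-Gel@Ran against CNV, Gnb3, Snap23 and Synpo were the only called falls of the list, at -0.75 ± 0.17, -0.37 ± 0.11 and -0.42 ± 0.10 (adjusted p = 0.0232, 0.0474 and 0.0321). Without the filter on low values none of these 3 falls was called (adjusted p = 0.0574, 0.102 and 0.073).

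Among the largest rises from CNV to BetP-Gel@Ran in the wider list was that of Rph3a (1.04 ± 0.20, limma adjusted p = 0.015, and 0.0407 without the filter). Slc17a6, or VGLUT2, the glutamate transporter of ganglion cells, stood 0.90 ± 0.22 above CNV (adjusted p = 0.0321). It passed the filter only through the groups where it was higher, and without the filter the difference was not called (adjusted p = 0.0766). Slc17a6 was at 3.14, 6.18 and 2.51 FPKM in untreated, 0.860, 0.581 and 0.924 in CNV and 2.21, 2.52 and 2.25 in BetP-Gel@Ran libraries, and its BetP-Gel@Ran libraries all lay above CNV, where those of Slc17a7 overlapped CNV. Its difference from untreated was not called (-0.50 ± 0.22, adjusted p = 0.112). Against untreated, Atp6v1g2, Vamp1 and Gnb5 were among the lowest in BetP-Gel@Ran (-1.46, -1.12 and -1.09), and Rab27b, Erc1, Ppfia1 and Stx2 were highest (0.43, 0.42, 0.37 and 0.34, all called with and without the filter). Erc1 was under 1 FPKM in every untreated library.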

How the data were processed

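RNA-seq of choroidal-retinal flat mounts was analysed from 1 table of 9 libraries. Per the labels' protocols, frozen tissue was extracted with Trizol, 1 µg of RNA per sample was selected with poly-T beads, and NEBNext Ultra libraries, which do not mark strand, were sequenced on an Illumina instrument. Per the submitters' processing notes, HTSeq 0.6.0 and the mm10 build were used; the aligner and the strand setting were not given in the sources used here. Values deposited by the authors were FPKM, which are normalized values and not counts. Deposited FPKM multiplied by gene length gave whole reads for 100% of values within a tolerance of 0.05, with totals of 16990118 to 18753737 reads per library. Precision is set by n = 3 libraries a group.

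log2(FPKM + 1) was fitted across all genes with limma 3.58.1 (R 4.3.3, statmod 1.5.0; trend and robust options, two-sided), with 1 mean per group over the 9 libraries and no covariate. A gene was tested when 3 or more libraries reached 1 FPKM, and Benjamini-Hochberg adjustment was made in each comparison over all tested genes (threshold 0.05). The smallest p of an exact permutation test with 3 libraries a side is 0.1, and no such test was made. The fit was tested on simulated data. List sums, ratios and shares are descriptions without a test.

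The genes, their division into 26 general and 8 ribbon genes and all lists were chosen with earlier results of these data known. Named genes were all 34, plus, from the wider synaptic lists, the 4 called genes with the largest rise and the 4 with the largest fall in each comparison, and from marker lists the most abundant or those low or at 0. Some genes that this rule picks are not reported here. Of the 34 coordinates, 32 were identical to GENCODE M21. Sequences are from RefSeq promoter tables on GRCm38.p6. Alternatives were quantile normalization, FPKM over its library sum, a filter of 5 FPKM or none, a pseudocount of 0.1, a fit of 2 groups, no trend or robust option, limma voom on recovered reads, a replicate block and each library left out.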

Additional observations from a re-analysis of the deposited data

How the results depend on the processing

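The filter of 5 FPKM tested 20 of the 30 genes, so the others, Rims1 among them, had 17 alternatives in place of 18. Over all alternatives in which a gene was tested, 23 of the 27 calls in CNV against untreated were kept. Those of Stx1a, Sv2b, Ctbp2 and Cacna1f were not. Of the 9 in BetP-Gel@Ran against CNV, 3 were kept (Cplx1, Snap25 and Rims1), and of the 23 in BetP-Gel@Ran against untreated, 15. The numbers of synaptic genes called in these comparisons ran from 24 to 26, from 3 to 15 and from 15 to 25 when each library was left out. In BetP-Gel@Ran against CNV they were 4 without the filter on low values and 5 with a replicate block. limma voom on recovered reads called 27, 10 and 24.

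Over all genes, a filter of 5 FPKM called 1735 higher in CNV and 1337 higher in BetP-Gel@Ran against untreated, with fewer genes tested. In BetP-Gel@Ran against CNV, 818 higher and 1165 lower genes became 537 and 652 in a fit of the 2 groups, 263 and 590 without a filter, and 523 and 875 with the replicate block. Leaving out each library gave 126 to 1457 higher and 320 to 1758 lower genes there, 2593 to 3127 higher and 2513 to 3075 lower in CNV against untreated, and 1438 to 2482 higher and 1760 to 2647 lower in BetP-Gel@Ran against untreated. Division by the library sum gave 1543 lower in BetP-Gel@Ran against untreated. The cause was not tested.

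The difference in the log2 ratio of general to ribbon genes between BetP-Gel@Ran and CNV was 0.55 from sums and 0.40 from means of log2 values. Leaving out each library gave -1.28 to -0.85 in CNV against untreated, 0.52 to 0.60 in BetP-Gel@Ran against CNV and -0.73 to -0.29 in BetP-Gel@Ran against untreated.

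Changes of sign were seen only among uncalled values when 1 library was left out. In BetP-Gel@Ran against CNV the log2 fold changes then ran from -0.19 to 0.16 for Stx1a, from -0.097 to 0.085 for Stx3, from -0.023 to 0.042 for Ctbp2 and from -0.26 to 0.018 for Cabp4. In CNV against untreated they ran from -0.17 to 0.034 for Slc6a9.

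Libraries that share a replicate number did not deviate together (r from -0.15 to 0.08 across genes), and those with different numbers had r from -0.19 to 0.17. The values thus gave no sign of pairing by number, but 3 libraries a group cannot exclude it. With the replicate block, 26, 5 and 23 of the 30 tested synaptic genes were called. Grm6, Bsn, Pclo and Unc13a were under the filter, and at their levels the added 1 FPKM makes log2 fold changes small. The CNV means of Unc13a and Pclo were 1.59-fold and 1.48-fold lower than the untreated means, without overlap of libraries. Neither was called in the fit without a filter.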
